A study of Mus musculus with 7 samples.

Results

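The genes described here encode the subunits and accessory proteins of the vacuolar proton pump (V-ATPase) and the cathepsins, the proteases of the lysosome, in sorted mouse Paneth cells. Members were chosen by name only: protein-coding genes whose symbol begins with Atp6v0, Atp6v1 or Atp6ap, or is Cts with a single further letter, leaving out Ctss. This gave 43 of 52550 genes in the count files, 26 of them V-ATPase genes and 17 cathepsin genes. One of the 26, Atp6v1fnb, carries the name of its neighbour Atp6v1f and is not known as a pump subunit. After the filter on low counts, 27 members were tested for a difference between the groups, 18 V-ATPase and 9 cathepsin genes, and 16 were not.

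Paneth cells sit at the bottom of the small-intestinal crypts and store antimicrobial proteins in large granules. The V-ATPase is a rotary pump that uses ATP to move protons into lysosomes, endosomes and secretory granules. Its V1 sector in the cytosol burns ATP, and its V0 sector in the membrane carries the protons. Cathepsins are made as inactive precursors, sorted to the lysosome and activated in its acid interior. Tissue-restricted isoforms of several pump subunits are known from kidney intercalated cells and osteoclasts, and several cathepsins are known from single cell types such as neutrophils, cytotoxic lymphocytes, osteoclasts or placenta.

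RNA was measured in 7 libraries of Paneth cells sorted by CD24 and side scatter from the small intestine of Lgr5-EGFP-IRES-CreERT2 mice on the C57BL/6J strain, a genotype that both groups carried. The 4 DSS libraries came from mice aged 12 weeks (DSS 1) or 10 weeks (DSS 2, DSS 3 and DSS 4) given 3% dextran sulfate sodium, which damages the gut epithelium, in drinking water for 7 days and killed 3 days after its end. The 3 water libraries, the controls, came from mice aged 12 weeks (water 1 and water 2) or 10 weeks (water 3). The labels leave unstated whether libraries came from different animals, and the p-values then reflect only variation among these libraries, which may be technical.

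Total counts ran from 23175708 to 32451653 per library, so that 3 counts correspond to 0.0924 to 0.129 CPM (read counts scaled to a common library size). All 12 Paneth markers examined were detected, with a summed level of 260910 to 278840 CPM in water and 128080 to 222930 CPM in DSS. Markers of goblet and stem cells were present as well. The 7 goblet cell markers summed to 9877 to 11034 CPM in water and 7808.5 to 12966 CPM in DSS. For the 6 stem cell markers the sums were 4178 to 5017 CPM in water and 4079 to 4996 CPM in DSS. The part of such cells in the levels of the members was not tested. Markers of other cells that are rich in lysosomes were scarce. The 12 macrophage and dendritic cell markers summed to 5.62 to 9.95 CPM in water and 4.84 to 7.92 CPM in DSS. Tyrobp was at 0 in all libraries, and Csf1r and Adgre1 had no more than 4 counts. Of the same list, Cd14 had 73 to 175 counts, Itgam 17 to 60, C1qa 0 to 38 and Cx3cr1 7 to 16. Neutrophil markers summed to at most 0.446 CPM. Of 10 lymphocyte markers, 8 had at most 3 counts, while Ptprc, which encodes the CD45 that the sort excluded, had 193 to 558. DSS 1 stood apart from the rest of its group: the chi-square of its counts over the degrees of freedom was 14.9 to 22.1 against the water libraries and 38.9 to 53.4 against the other DSS libraries, and its Paneth markers were the highest of DSS. Markers of enteroendocrine cells set water 1 apart, with a sum of 67.1 CPM against 536 to 2736 CPM in the other 6 libraries. CPM values are scaled by TMM (trimmed mean of M values), and RPKM values divide them by the gene's summed exon length in kilobases, so that genes can be compared. In these sorted bulk samples, fewer cells of a type and less RNA per cell cannot be told apart.

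Short stretches of promoter are shown first because they hold a sequence that some of the detected members have in common. RefSeq promoter windows on build GRCm38.p6, from 250 bases before to 50 bases after a start site, were at hand for 32 of the 43 members. The letters CACGTG, the core of the site that the lysosomal transcription factor TFEB is known to bind, were searched on both strands, together with the longer forms TCACGTGA and GTCACGTG, which contain it. In the lines below, capitals mark CACGTG within flanking bases in lower case, written 5′ to 3′ on the strand of the gene.
Atp6v0b, chr4:117887348-117887377, minus strand, 36 bases before the start site: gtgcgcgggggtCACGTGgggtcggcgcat
Atp6v1a, chr16:44139373-44139402, minus strand, 131 bases before the start site: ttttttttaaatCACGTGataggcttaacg
Ctsd, chr7:142388055-142388077, minus strand, 245 bases before the start site: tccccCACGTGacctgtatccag
Ctsf, chr19:4855074-4855103, plus strand, 79 bases before the start site: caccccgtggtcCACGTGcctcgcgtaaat

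The Atp6v1a stretch lies in an intron of the gene model used for counting, and the stretches of Atp6v0b, Ctsd and Ctsf lie outside their gene models. Among members with a window, 8 of the 20 tested genes (40.0%) held CACGTG and 0 of the 12 genes that were not tested did. Over all tested protein-coding genes with a window the share was 11.5% of 10279, and over all 27025 genes in the promoter table it was 8.09%. The 8 were Atp6v0b, Atp6v0d1, Atp6v0e, Atp6v1a, Ctsa, Ctsd, Ctsf and Ctsl. The longer form TCACGTGA was found in 5 of the 20 (25.0%), against 2.13% of tested protein-coding genes, and GTCACGTG in 4 of the 20 (20.0%), against 4.62%. These are matches of letters in windows, given as a description without a test.

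In the V0 sector, transcripts of 7 of 9 genes passed the filter, and each subunit type except a was carried mostly by a single gene. Atp6v0b (subunit b, part of the proton-carrying rotor) stood at 34.3 ± 3.98 RPKM in water (SD, n = 3) and 30.7 ± 2.48 RPKM in DSS (SD, n = 4). Atp6v0d1, subunit d of the central stalk, stood at 28.3 ± 1.91 RPKM in water and 25.3 ± 2.33 RPKM in DSS, while its osteoclast-associated paralog Atp6v0d2 had at most 1 count in any library. Atp6v0e, a small membrane subunit, made up 84.8% ± 2.55 of the summed RPKM of Atp6v0e and Atp6v0e2 in water and 82.1% ± 2.20 in DSS.

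Subunit a, which forms the half-channels for protons and directs the pump to its membrane, was the exception. Atp6v0a2, the isoform known from the Golgi and endosomes, stood at 11.0 ± 0.316 RPKM in water (SD, n = 3) and 11.6 ± 0.423 RPKM in DSS (SD, n = 4). Atp6v0a1 stood lower, at 4.93 ± 0.403 RPKM in water and 5.14 ± 0.0806 RPKM in DSS. Tcirg1, the a3 subunit of lysosomes and osteoclasts, has a name outside the rule and is given only to complete this order. Its 11.8 ± 0.408 RPKM in water and 11.1 ± 0.867 RPKM in DSS lay close to Atp6v0a2. In water every library of Tcirg1 (11.4 to 12.2 RPKM) was above every library of Atp6v0a2 (10.7 to 11.3 RPKM), and in DSS the ranges overlapped. In water, shares of the 4 genes' summed RPKM were 17.8% ± 1.45 for Atp6v0a1, 39.7% ± 1.35 for Atp6v0a2 and 42.6% ± 1.08 for Tcirg1, and in DSS they were 18.4% ± 0.702, 41.7% ± 1.43 and 39.9% ± 2.04. Atp6v0a4, the kidney and inner ear isoform, had at most 1 count in any library.

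**Figure D1:**
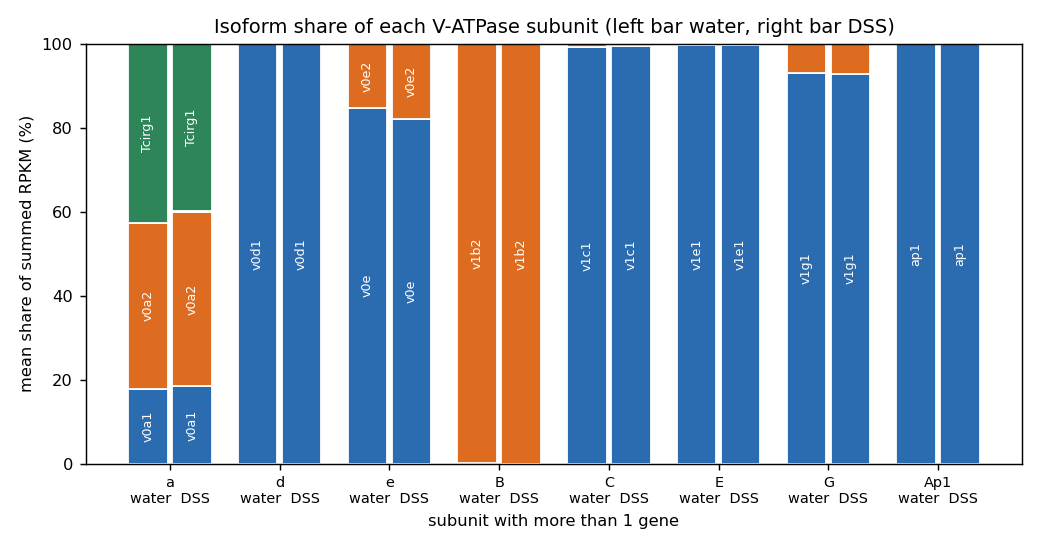
Mean share of the summed RPKM (vertical axis, %) taken by each gene of a V-ATPase subunit that has more than 1 gene (horizontal axis), with the left bar of each pair for the 3 water libraries and the right bar for the 4 DSS libraries. Subunit a is divided among Atp6v0a1, Atp6v0a2 and Tcirg1 in both groups, e and G have a minor second gene, and d, B, C, E and Ap1 are nearly all from 1 gene.

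The count of Atp6v0c, subunit c of the rotor ring and the part that binds the protons, was low for a core subunit, at 4.58 ± 0.423 RPKM in water (SD, n = 3) and 4.48 ± 0.309 RPKM in DSS (SD, n = 4). In water 1 to 3 it drew 332, 357 and 347 counts, and in DSS 1 to 4 it drew 354, 549, 441 and 452. The processed pseudogene Atp6v0c-ps2, which matches an Atp6v0c transcript at 99.785% over 465 bases, drew 349 to 665 counts per library. Atp6v0c-ps1, with an identity of 97.204%, drew a further 193 to 379 counts. The pseudogenes therefore held 62.7% ± 0.739 of the counts of the 3 loci in water and 63.1% ± 1.98 in DSS. The match covers 13.7% of the exon bases of Atp6v0c. Within that stretch, the counts do not tell whether a read came from the gene or a copy. A further 927 exon bases of Atp6v0c are shared with another gene model on the same strand that has 0 counts in all libraries, so its level is uncertain in both directions. With the copies added, an alternative chosen after seeing the data, Atp6v0c stood at 39.8, 46.9 and 38.2 CPM in water and 42.3, 46.9, 38.5 and 37.2 CPM in DSS, with a log2 change of -0.01 ± 0.10 (SE).

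**Figure D2:**
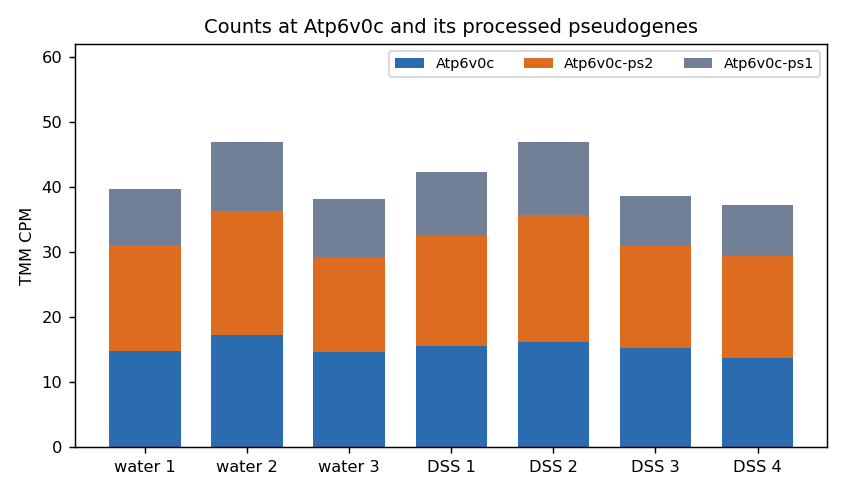
TMM CPM (vertical axis) at Atp6v0c and its processed pseudogenes Atp6v0c-ps2 and Atp6v0c-ps1, stacked for each of the 7 libraries (horizontal axis). The gene itself is the smaller part of each stack, at 13.7 to 17.2 CPM, and the stacks of the water and DSS libraries overlap.

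The V1 catalytic head binds and splits ATP at its A and B subunits. Atp6v1b2, the widely expressed B isoform, had 114, 130 and 133 CPM in water 1 to 3 and 118, 117, 125 and 121 CPM in DSS 1 to 4. The groups overlapped, with water 1 the lowest of all 7. By length this was 23.7 ± 1.90 RPKM in water and 22.6 ± 0.643 RPKM in DSS, and Atp6v1b1, the kidney isoform, had at most 2 counts in any library. Atp6v1a, the catalytic A subunit, stood at 9.31 ± 0.460 RPKM in water and 8.88 ± 0.203 RPKM in DSS.

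In the V1 stalks, which couple the head to the membrane sector, the highest mean level per length was that of Atp6v1f, a subunit of the central stalk, at 32.5 ± 2.999 RPKM in water (SD, n = 3) and 29.4 ± 1.69 RPKM in DSS (SD, n = 4). Atp6v1g1, a peripheral stalk subunit, stood at 28.5 ± 3.797 RPKM in water and 23.9 ± 1.54 RPKM in DSS. The water ranges of these genes overlapped, 29.3 to 35.3 RPKM for Atp6v1f and 25.7 to 32.9 RPKM for Atp6v1g1, and pseudogenes draw part of the Atp6v1g1 reads, so their order was not settled. Atp6v1g1 made up 92.98% ± 1.23 of the RPKM of the G isoforms in water and 92.9% ± 0.594 in DSS. Most of the rest was Atp6v1g2, an isoform known from neurons, at 2.19 ± 0.677 RPKM in water and 1.82 ± 0.253 RPKM in DSS, while Atp6v1g3, a kidney isoform, had at most 1 count. The remaining isoform pairs were one-sided as well. In water, Atp6v1c1 made up 99.3% ± 0.340 of subunit C and Atp6v1e1 99.8% ± 0.189 of subunit E, and their paralogs Atp6v1c2 and Atp6v1e2 had at most 9 counts and 1 count. Atp6v1d and Atp6v1h were lower per length, at 6.74 ± 0.741 and 4.82 ± 0.192 RPKM in water.

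The accessory subunit Atp6ap2, also known as the prorenin receptor and needed for assembly of the pump, had the highest level per length of all members, 52.4 ± 1.25 RPKM in water (SD, n = 3) and 50.5 ± 1.44 RPKM in DSS (SD, n = 4). The water libraries had 139, 139 and 134 CPM and the DSS libraries 134, 136, 127 and 131 CPM, so the groups overlapped. Atp6ap1, the other accessory subunit, stood at 25.1 ± 0.984 RPKM in water and 23.7 ± 1.82 RPKM in DSS, and Atp6ap1l had at most 1 count in any library.

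**Figure D3:**
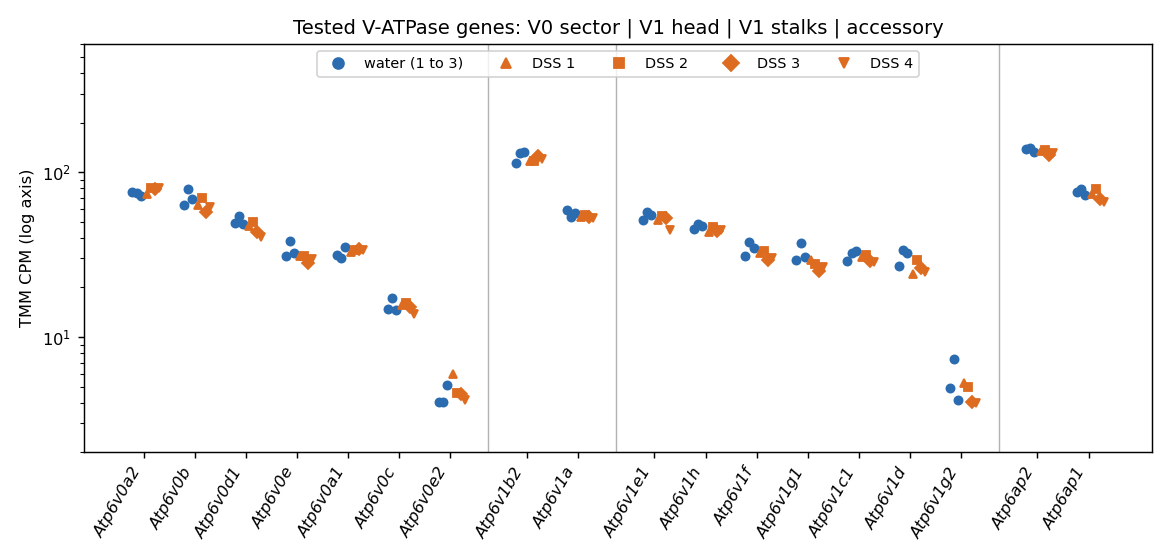
TMM CPM on a log axis for the 18 tested V-ATPase genes, ordered within V0 sector, V1 head, V1 stalks and accessory genes by their mean in water. Each point is 1 library, circles for the 3 water and other symbols for the 4 DSS libraries, and the groups overlap for every gene shown.

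Of the cathepsins, 9 of 17 passed the filter: 7 cysteine proteases, the aspartic protease Ctsd and the serine carboxypeptidase Ctsa. Ctsz, a cysteine carboxypeptidase, had the highest cathepsin level per length, 50.7 ± 5.30 RPKM in water (SD, n = 3) and 51.4 ± 3.68 RPKM in DSS (SD, n = 4). Its range in water, 47.4 to 56.8 RPKM, overlapped that of Atp6ap2, 51.0 to 53.2 RPKM, so the order of these genes at the top was not settled. Ctsb, a cysteine protease, had the highest count of all members, with 208, 217 and 207 CPM in water and 219, 207, 197 and 196 CPM in DSS, or 34.8 ± 0.866 and 33.8 ± 1.73 RPKM. DSS 1 was the highest and DSS 4 the lowest of the 7 libraries for Ctsb, so the groups overlapped. Exons of Ctsb overlap Fdft1 on the opposite strand by 774 bases (12.8%), and Fdft1 had 586 to 995 counts. Counting had no strand option, and the effect of this overlap on the Ctsb level was not measured.

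Ctsd, the main aspartic protease of lysosomes, stood at 31.3 ± 0.863 RPKM in water and 30.5 ± 2.18 RPKM in DSS. Of its exon bases, 808 (34.4%) are shared with Gm49369 on the same strand, which has 0 counts in all libraries. The file headers show no option for counting a read toward more than 1 gene, so the level of Ctsd may be understated by a part that was not measured. Ctsa, which also protects other lysosomal enzymes from breakdown, stood at 21.4 ± 0.809 and 20.8 ± 1.30 RPKM. Ctsc, an aminodipeptidase that activates granule proteases, and Ctsh, an aminopeptidase, stood at 9.88 ± 1.22 and 7.87 ± 0.0903 RPKM in water. Ctsl, Ctsf and Ctso, cysteine proteases as well, were the lowest of the tested cathepsins, at 4.39 ± 0.704, 2.72 ± 0.747 and 2.56 ± 0.387 RPKM in water.

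**Figure D4:**
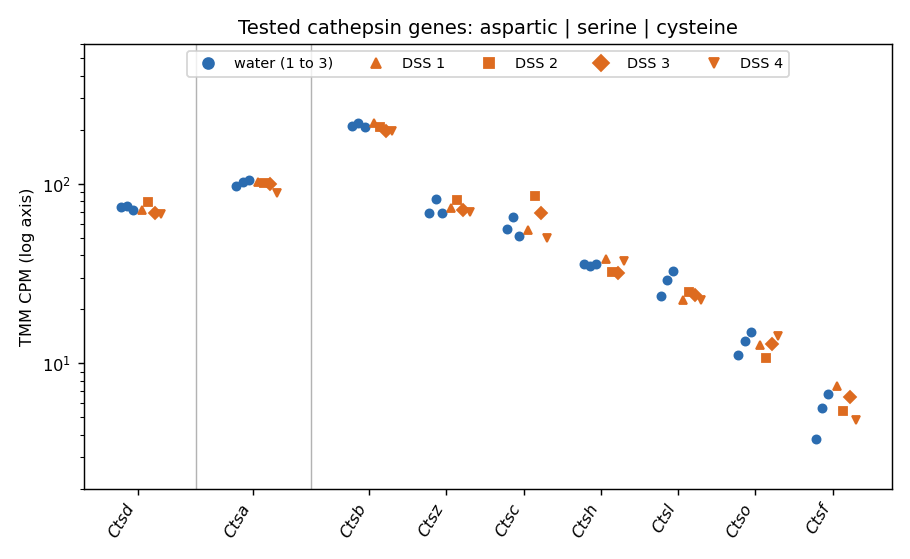
TMM CPM on a log axis for the 9 tested cathepsin genes, grouped as aspartic, serine and cysteine proteases. Each point is 1 library, circles for water and other symbols for DSS, and Ctsc is highest in DSS 2 and DSS 3, at 85.3 and 68.9 CPM.

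The members that did not pass the filter were mainly those known from other cells. Of the 16, 12 had at most 2 counts in any library. The neutrophil protease Ctsg and the placental cathepsins Ctsm, Ctsq and Ctsr had 0 counts in all 7 libraries, which allows at most 0.0924 to 0.129 CPM per library, with 3 counts as the limit and counting error only. Ctsj, another placental cathepsin, had 1 count in a single library. Ctsj, Ctsq, Ctsr and Ctsm lie in a cluster on chromosome 13 between 61000179 and 61541839 on mm10. Atp6v1fnb had 1 count in a single library. The other 4 were low but detected: the gastric and immune aspartic protease Ctse with at most 19 counts in a library, the osteoclast protease Ctsk with at most 11, Atp6v1c2 with at most 9 and the lymphocyte cathepsin Ctsw with at most 5.

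The comparison of DSS with water asks how Paneth cells respond to gut inflammation. Of the 27 tested members, 0 passed the adjusted threshold of 0.05 in edgeR's quasi-likelihood test, as did 0 of all 17449 genes tested (0.0%) in either direction, and the lowest adjusted p of a member was 0.251. At an unadjusted p under 0.05, 3 members (11.1%) passed in edgeR, against 15.7% of all genes tested. All 3 had lower estimates in DSS, where the share of all genes was 7.35%, and 0 had higher estimates, where it was 8.36%. None of the 27 tested members had all 4 DSS libraries above, or all 4 below, all 3 water libraries. Over all genes tested, 7.4% lay above and 7.51% below in this way. Ctsw, which was not tested, lay above, at 0.103 to 0.176 CPM in DSS and 0 to 0.0961 CPM in water. It had at most 5 counts in any library. DESeq2 was run without the low-count filter, on 35081 genes and 39 members, of which 12 were given no adjusted p. It called 0.989% of these genes higher and 0.847% lower at an adjusted p under 0.05, and 0 members. At an unadjusted p under 0.05 in DESeq2 were 3 of the 39 members, beside 7.19% of the 35081 genes. limma-voom, on the same 27 members and 17449 genes as edgeR, called 0 members and 0 genes. At an unadjusted p under 0.05 it had 3 members, beside 17.0% of all genes.

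The count of 3 lower estimates rested on single libraries. Over the same 27 genes it was 6 without water 1, 5 without DSS 2, 1 without water 3, without DSS 1 or without DSS 3, and 0 without water 2 or without DSS 4. None of these settings gave a higher estimate at that p among the 27. Without water 3, where 28 members passed the filter, 1 member outside the 27 had a higher estimate at that p. With library totals only, which called 12.1% of all genes higher and 0.16% lower, Atp6v0a2 was the 1 member called, at a log2 change of 0.32 (edgeR adjusted p = 0.0495), and 9 members were at an unadjusted p under 0.05 beside 36.8% of all genes. With TMM scaling Atp6v0a2 was at 0.08 ± 0.06 (SE), with 75.7, 74.9 and 71.7 CPM in water and 73.9, 79.7, 79.0 and 79.9 CPM in DSS.

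The 3 members were Atp6v1d, Atp6v1g1 and Ctsl. Atp6v1d, a shaft subunit of the central stalk, had 27.1, 33.5 and 32.3 CPM in water and 24.0, 29.4, 26.1 and 24.7 CPM in DSS. Water 1 lay below DSS 2, and the other water libraries lay above all DSS libraries. The log2 change was -0.25 ± 0.10 (SE, edgeR adjusted p = 0.271). Atp6v1g1 had 29.2, 37.3 and 30.6 CPM in water and 29.3, 27.6, 25.1 and 26.7 CPM in DSS. Here only DSS 1 reached into the water range. The log2 change of Atp6v1g1 was -0.25 ± 0.09 (SE, edgeR adjusted p = 0.255). Pseudogenes matching this gene held 23.2% ± 2.75 of the summed counts in water and 25.0% ± 2.21 in DSS, and with them added the change was -0.21 ± 0.08.

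Ctsl had 23.7, 29.0 and 32.8 CPM in water and 22.5, 24.8, 23.9 and 22.6 CPM in DSS. Water 1 lay among the DSS libraries, and water 2 and water 3 lay above all of them. Water 1, the lowest water library for all 3 genes, is also the library with the low enteroendocrine markers, whose part in these values was not tested. The log2 change was -0.28 ± 0.10 (SE, edgeR adjusted p = 0.251), and it was -0.17 without water 3 and -0.40 without water 1. With library totals only the 3 genes were at -0.01, -0.02 and -0.05 in the order given. An antisense gene model overlaps 1742 exon bases of Ctsl (26.9%), and the pseudogene Gm49230 on the same strand shares 395. Both had 0 counts. As for Ctsd, the level of Ctsl may therefore be understated by a part that was not measured.

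Of the other V-ATPase genes with the smallest p-values, Atp6v0a2 had an estimate above 0 and the rest had estimates between -0.26 and -0.08, none past the threshold. Atp6v0b had 63.5, 79.4 and 68.3 CPM in water and 63.6, 69.7, 57.6 and 61.2 CPM in DSS, a log2 change of -0.16 ± 0.09 (SE). Atp6v0d1 had 49.1, 54.6 and 48.4 CPM in water and 47.2, 50.04, 43.5 and 40.5 CPM in DSS, a change of -0.16 ± 0.08. In both genes water 2 was the highest of the 7 libraries. Atp6v0e was at -0.17 ± 0.08, Atp6v1f at -0.15 ± 0.08, Atp6v1e1 at -0.10 ± 0.08, Atp6v1h at -0.08 ± 0.06 and Atp6v1g2 at -0.26 ± 0.21. Exons of Atp6v1g2 overlap Nfkbil1 on the opposite strand by 144 bases, and the counting had no strand option.

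Estimates of the pump genes lay mostly, and by little, below 0 with TMM scaling. In the V-ATPase group 15 of 18 were below 0, with a median log2 change of -0.08, against 50.3% below 0 and a median of -0.0015 over all genes tested. By role, the medians were -0.03 over 7 V0 genes, -0.07 over the 2 head genes, -0.15 over 7 stalk genes and -0.07 over the 2 accessory genes. All 9 tested V1 genes had estimates below 0. With library totals only, which moved the median of all genes to 0.23, 3 of 18 V-ATPase genes were below 0. Relative to the median of all genes, the V-ATPase median was -0.08 under both scalings and the stalk median -0.15. In the DSS libraries the mean log2 level of the 18 genes, relative to the water mean, was -0.05, -0.02, -0.13 and -0.16 in DSS 1 to 4, and the water libraries spread from -0.08 in water 1 to 0.09 in water 2. DSS 1 and DSS 2 were thus within the range of water, and DSS 3 and DSS 4 below it. Without DSS 1 the V-ATPase median was -0.09 and the cathepsin median -0.06. Among the libraries of sequencing lane 6, read from file names and holding all water libraries and DSS 4, the V-ATPase median was -0.19 and the cathepsin median -0.12. The summed level was 913 ± 39.5 CPM in water (SD, n = 3) and 862 ± 27.96 CPM in DSS (SD, n = 4).

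Cathepsin estimates were centred close to 0, with a median of -0.03 and 6 of 9 below 0. Summed over the 9 genes, the level was 598 ± 22.9 CPM in water (SD, n = 3) and 590 ± 32.8 CPM in DSS (SD, n = 4). Ctsd was at -0.03 ± 0.07, Ctsa at -0.05 ± 0.07, Ctsb at -0.04 ± 0.06, Ctsz at 0.02 ± 0.08 and Ctsh at -0.02 ± 0.08 (log2, SE), none past the threshold in edgeR. The less precise estimates were 0.17 ± 0.21 for Ctsf and -0.06 ± 0.13 for Ctso. Ctsf had 3.79, 5.62 and 6.71 CPM in water and 7.45, 5.45, 6.53 and 4.86 CPM in DSS, with its lowest value in water 1 and its highest in DSS 1.

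**Figure D5:**
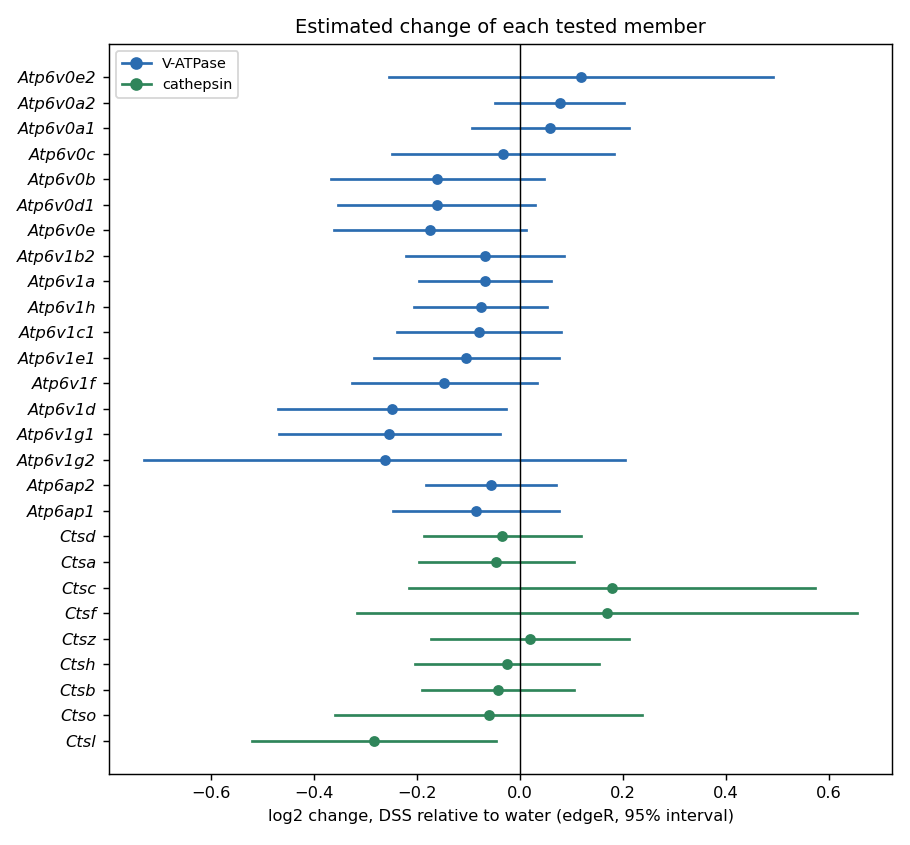
Estimated log2 change in DSS relative to water (horizontal axis) for each of the 27 tested members, with the 95% interval from the edgeR fit as a bar. The intervals of Atp6v1d, Atp6v1g1 and Ctsl lie below 0, and those of the other 24 members include 0.

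The 95% intervals describe the precision of the edgeR fit with TMM scaling. They leave out the choice of scaling, and library totals only moved the median log2 change of all genes to 0.23. Whether the libraries came from different animals, which the labels leave unstated, is also outside them. For the 24 members with a mean of at least 10 CPM in both groups, the 95% intervals of the log2 change lay between -0.52 and 0.57, the ends being those of Ctsl and Ctsc. The interval was -0.18 to 0.07 for Atp6ap2, -0.19 to 0.10 for Ctsb, -0.05 to 0.20 for Atp6v0a2 and -0.20 to 0.06 for Atp6v1a. For Atp6v1g2, Atp6v0e2 and Ctsf, at under 10 CPM, they were wider, reaching from -0.73 to 0.65 over the 3 genes. The median spread between libraries was 8.18% of the mean in water and 6.90% in DSS over the tested members, and 9.16% and 11.0% over all genes tested.

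Ctsc varied most among the DSS libraries of all members at 10 CPM or more. It had 55.9, 65.2 and 51.2 CPM in water and 55.6, 85.3, 68.9 and 49.8 CPM in DSS 1 to 4. DSS 2 and DSS 3 lay above all water libraries, and DSS 4 lay below them. The log2 change was 0.18 ± 0.17 (SE, edgeR adjusted p = 0.671), and it was -0.12 without DSS 2 and DSS 3, a setting chosen after seeing the data. The summed level of 7 markers of tuft cells, another epithelial cell type, was 828 CPM in both of these libraries, against 441 CPM in DSS 1, 423 CPM in DSS 4 and 444 to 478 CPM in water, with 0 of the 7 at 0 in all libraries. DSS 2 and DSS 3 were also the only DSS libraries that shared an isolation day. The part of these cells or of the day in the Ctsc values was not tested, and in this pair they cannot be told apart.

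Other genes of the acid compartment were likewise without a call at an adjusted p under 0.05 in edgeR. Of 40 other lysosomal hydrolases, all tested, 2 had higher and 2 lower estimates at an unadjusted p under 0.05, and the median was -0.06. These 4 were Dnase2a, the lysosomal DNase, at -0.47 ± 0.13, Gla, alpha-galactosidase A, at -0.41 ± 0.13, Scpep1, a carboxypeptidase, at 0.23 ± 0.08, and Psap, the precursor of the saposins, at 0.17 ± 0.07 (log2, SE). Of 25 tested of 28 lysosomal membrane proteins, 3 had higher and 5 lower estimates at that p, with a median of -0.07. Ostm1, the partner of the chloride transporter Clcn7, was at -0.25 ± 0.08, and Cd63, a tetraspanin of late endosomes and granules, at -0.24 ± 0.08. Over all genes tested, 8.36% were higher and 7.35% lower at that p.

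Of 20 tested of 22 genes for assembly and regulation of the pump, 2 had higher and 2 lower estimates at an unadjusted p under 0.05 in edgeR. With TMM scaling 18 of 20 were below 0, with a median of -0.07. The shares of all genes tested were 8.36% higher and 7.35% lower at that p, and 50.3% below 0. Oxr1, whose TLDc domain is known from pump regulators, was at -0.25 ± 0.07, Vma21, an assembly chaperone of V0, at -0.24 ± 0.08, and Rragd, a GTPase that couples lysosomes to mTORC1, at 0.36 ± 0.11. Among 11 tested of 15 genes that control lysosomal transcription, 2 had lower estimates at that p. Mitf, of the TFEB family, was low at 4.29 ± 0.468 CPM in water (SD, n = 3) and 2.84 ± 0.487 CPM in DSS (SD, n = 4), with a log2 change of -0.60 ± 0.17 (edgeR adjusted p = 0.170). Fnip1, a folliculin partner, was at -0.29 ± 0.08 and Fnip2 at -0.20 ± 0.09, while Tfeb was at 0.09 ± 0.12 and Tfe3 at -0.01 ± 0.07.

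Of 21 tested genes that sort enzymes to lysosomes, and of 6 tested of 12 cathepsin inhibitors, 0 passed an unadjusted p under 0.05 in edgeR, with medians of 0.02 and -0.09. Gga2, Vps33a and Vps35, which act in vesicle sorting and fusion, had the smallest p-values of the first list, at -0.14 ± 0.07, 0.10 ± 0.06 and -0.09 ± 0.05. Cst3, the secreted inhibitor cystatin C, was at 93.9 ± 1.87 CPM in water (SD, n = 3) and 88.7 ± 4.05 CPM in DSS (SD, n = 4). The protease inhibitor Serpinb1a was at 0.24 ± 0.14 and Serpinb6b at -0.31 ± 0.27.

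Positions are those of the count files, on mouse build mm10 with GENCODE M15 gene models, in which counting joins all exons of a gene. Atp6ap2 (ENSMUSG00000031007.2) is at chromosome X, 12587801 to 12617049, plus strand. Ctsb (ENSMUSG00000021939.8) is at chromosome 14, 63122462 to 63145923, plus strand. Atp6v1d (ENSMUSG00000021114.9) is at chromosome 12, 78840725 to 78861638, minus strand, and Atp6v1g1 (ENSMUSG00000039105.6) at chromosome 4, 63544772 to 63550750, plus strand. Ctsl (ENSMUSG00000021477.9) is at chromosome 13, 64359337 to 64370890, minus strand. Atp6v0c (ENSMUSG00000024121.13) is at chromosome 17, 24163866 to 24169702, minus strand, and Ctsc (ENSMUSG00000030560.17) at chromosome 7, 88278085 to 88310888, plus strand.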

How the data were processed

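The deposited values are raw counts per gene for 52550 genes in 7 libraries, made by the authors with featureCounts 1.5.3 over GENCODE M15 exons per the file headers, with primary alignments only and no strand option. Per the submitters' processing notes, mm10 was the build and STAR 2.5.3a, DESeq2 and featureCounts 1.5.2 were used. Without strand, antisense reads count toward a gene. Symbols and gene types came from GENCODE M21 by identifier (52403 genes matched). filterByExpr left 17449 genes. edgeR 4.0.16 (R 4.3.3) with TMM factors compared DSS with water by the quasi-likelihood test, with Benjamini-Hochberg adjustment over all of these genes and no covariate. The sign of a log2 change is DSS relative to water. DESeq2 1.42.0 and limma 3.58.1 were alternatives, beside other scalings and filters, age as a covariate, subsets by age and lane, and leaving out each library. On simulated data of 17449 genes for this comparison, edgeR recovered 58.2% of 67 genes changed 1.5-fold, 89.6% of 67 changed 2-fold and 100% of 66 changed 4-fold. Simulated counts were drawn independently for each gene around a common group mean, with no library standing apart as DSS 1 did. These shares therefore do not measure the recovery in the real libraries, where 0 of 17449 genes passed the threshold. Transcripts were matched to copies with BLAST 2.17.0 at 95% identity or more over 200 bases. Members and lists were chosen with earlier results of these data known. Values are named for the highest member per length of each role, the 10 V-ATPase genes and 6 cathepsins with the smallest p, subunit isoforms, members that did not pass the filter, and up to 3 tested genes with the smallest p of each pathway list, of which 1 is not reported here. Psap, Tfeb, Tfe3 and Tcirg1 are named beyond this rule, after their values were seen. Values of Atp6v0c, Atp6v1a, Ctsh and Ctso are also given outside it. Any 2 libraries differed by more than counting noise (lowest chi-square over its degrees of freedom 13.3). No isolation day held both groups, and day and group cannot be told apart.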

Additional observations from a re-analysis of the deposited data

Results flagged for a closer look

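Among the 36 series of values over the 4 DSS libraries, 1 had a library far from the rest, judged by its gap to the nearest library over the whole range (Dixon's 95% limit). About 5% of series would pass by chance. Atp6v0a2, the subunit a isoform of the Golgi and endosomes, had a ratio of 0.847, with DSS 1 at 73.9 CPM and the others at 79.0 to 79.9 CPM. DSS 1 was within the range of the water libraries, 71.7 to 75.7 CPM. It also stood nearer to the water libraries than to the other DSS libraries over all genes, by the chi-square of their counts.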

How the results depend on the processing

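No paired analysis was possible because the replicate numbers follow accession order, and the single number that titles share across the groups (water 3, DSS 2 and DSS 3), whose meaning is not given, would leave the other libraries without a partner. The calls over all genes depended on the tool and scaling: 347 genes were higher and 297 lower with DESeq2, 2107 and 28 with library totals only, 240 and 201 with no filter on low counts, 3 and 6 in lane 6 libraries only, with 1 DSS library, and 0 to 168 and 0 to 135 when 1 library was left out (168 and 135 without DSS 1, 9 and 0 without DSS 4). The cause was not tested. The V-ATPase median was 0.15 with library totals only, which shift all genes, and -0.19 in lane 6 libraries, and -0.13 to -0.06 when 1 library was left out. V-ATPase genes at an unadjusted p under 0.05 in edgeR were 3 higher and 0 lower with library totals. They were 1 lower with age as a covariate and without DSS 2 and DSS 3, and 0 to 5 lower when 1 library was left out. The cathepsin median was 0.20 with library totals and -0.12 in lane 6 libraries, and -0.06 to -0.0074 when 1 library was left out. Cathepsins at that p were 6 higher and 0 lower with library totals, 0 lower in lane 6 libraries, and 0 to 1 lower when 1 library was left out.

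With library totals only, 17 members reversed sign: Atp6v1f was at 0.086, Atp6v1b2 at 0.17, Ctsd at 0.20, Atp6v0d1 at 0.070, Atp6v0e at 0.060, Ctsa at 0.19, Atp6ap1 at 0.15, Atp6v1e1 at 0.13, Ctsb at 0.19, Atp6v1c1 at 0.15, Atp6v0c at 0.20, Ctso at 0.18, Atp6ap2 at 0.18, Ctsh at 0.21, Atp6v0b at 0.073, Atp6v1h at 0.16 and Atp6v1a at 0.17. In 10-week mice, where water 3 was the only water library, Ctsd was at 0.015, Atp6v0a1 at -0.055 and Atp6v0c at 0.046. In the same setting Atp6v1g2 was at 0.068, Atp6v0e2 at -0.21 and Ctsf at -0.26. In lane 6 libraries, Ctsz was at -0.076, Ctso at 0.10, Ctsc at -0.21, Ctsh at 0.054, Atp6v0e2 at -0.10 and Ctsf at -0.16. Without DSS 2 and DSS 3, Ctsz was at -0.028, Ctso at 0.036, Ctsc at -0.12 and Ctsh at 0.087. With age as a covariate, Atp6v0c was at 0.0077 and Ctsh at 0.011. Leaving out 1 library gave -0.030 to 0.11 for Ctsz, -0.032 to 0.37 for Ctsf, -0.17 to 0.050 for Ctso, -0.070 to 0.016 for Ctsh, -0.075 to 0.044 for Atp6v0c and -0.43 to 0.010 for Atp6v1g2. All of these are log2 changes that did not pass the threshold in the main comparison. With DESeq2, limma-voom, RLE size factors, TMM without granule genes, either other filter and copies added, all 27 members kept their sign.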

Other observations

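The order of members by level depends on the length used. With the longest coding transcript in place of the summed exons, a choice made after seeing the data, Atp6v0b had the highest level in water (70.4 RPKM), Atp6ap2 stood at 59.1 RPKM and Ctsz at 50.7 RPKM. Atp6v1b2 moved from place 10 to 4, Atp6v1e1 from 13 to 7 and Atp6v1h from 21 to 13 among the members.

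Markers of the cells from which the undetected pump isoforms are known were mostly low. Of 6 markers of osteoclasts and intercalated cells, Dcstamp, Ocstamp, Foxi1 and Slc4a1 had at most 1 count in any library. Slc26a4 ranged from 0 to 54 counts, and Acp5, which is also a lysosomal hydrolase, had 322 to 514.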
